A study of Mus musculus with 16 samples.

Results

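The 38 genes described here are cell cycle genes, taken by symbol from a table of 53465 gene identifiers counted in group 2 innate lymphoid cells (ILC2) of the mouse duodenum, 25978 of them with any count at all. All 38 symbols were found. By textbook role, 14 act in DNA replication or entry into S phase, 22 act in mitosis or are known as markers of late cycle phases, and Hmgb2 and Stmn1 were placed in neither class. The choice used no measured value of a comparison, but it was made with earlier results of these data known.

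A dividing cell copies its DNA in S phase and separates the copies in mitosis. Genes for replication, such as those of the MCM helicase, are switched on late in G1 by E2F factors, and their transcripts outlast S phase. Genes for mitosis are held down by the DREAM complex in resting cells, are switched on in G2 by B-MYB and FOXM1, and their transcripts fade after division, so that they mark cells that are dividing. Tissue-resident ILC2 are long-lived lymphocytes that renew themselves locally and divide when alarm signals such as IL-25, IL-33 and leukotrienes reach them.

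ILC2 were sorted from the first 5 cm of the small intestine of untreated C57BL/6 mice, 6 to 10 weeks old and kept free of specific pathogens. The study holds 4 libraries of each of 4 genotypes, namely WT and the knockouts Alox5 KO, Il25 KO and also St2 KO, numbered 1 to 4 within a genotype. Alox5 makes the enzyme that starts leukotriene synthesis, Il25 the tuft cell cytokine IL-25, and Il1rl1 the IL-33 receptor ST2. All mice carried the homozygous smart13 reporter at Il13, so the WT mice did too: WT is wild type with Il13 smart13/smart13, and Alox5 KO is Alox5 (-/-) with the same reporter. Il25 KO is Il25 (-/-) and St2 KO is St2 (-/-), and both carried homozygous Yarg at Arg1 besides smart13, which WT and Alox5 KO did not. The Yarg allele therefore cannot be told apart from what Il25 KO and St2 KO share against WT. Whether each library came from its own mouse is not said, so p-values measure only the spread between these libraries, which may be technical.

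Total gene counts ran from 2086864 to 3216937 per library, so that 1 count was worth 0.311 to 0.479 CPM (counts scaled by the column total). Alox5 was at 76.0 to 145 CPM in WT and at 4.78 to 11.98 CPM in Alox5 KO, Il25 was at 0 in all 16 libraries, and Il1rl1 counts were no check of the St2 deletion, at 126 to 208 CPM in St2 KO and 169 to 246 in WT. The sample codes form 3 sets: TS holds replicates 1 and 2 of every genotype, TT the last 2 replicates of Alox5 KO and of WT, and TY the last 2 of St2 KO and of Il25 KO. Counts of Xist were 982 to 1682 in TY and at most 7 elsewhere, and those of the Y-linked Ddx3y at most 2 in TY and at least 709 elsewhere, so set TY and female sex cannot be told apart. All 14 ILC2 markers were present, at a summed 6911 to 9078 CPM. Markers of B and plasma cells summed to 2024 to 2945 CPM in 13 libraries and to 763 to 848 CPM in Alox5 KO 1, Alox5 KO 2 and St2 KO 1. The 14 epithelial markers summed to 414 CPM in Il25 KO 1 and to 16.6 to 99.5 CPM in the other libraries, and the 6 stromal and endothelial markers to at most 1.19 CPM.

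The stretches before the start sites of 5 of the genes are shown because genes of a cycle phase are known to share promoter elements. Of the 38 genes, 31 were matched to RefSeq promoter sequences (build GRCm38.p6), and Mcm4, Ccne2, Aurkb, Ccna2, Kif20a, Tpx2 and Stmn1 were not. Capitals mark any of 3 sets of letters on either strand: the cell cycle homology region TTTGAA, the CCAAT box CCAAT, and the E2F letters TTTCCCGC, TTTCGCGC, TTTGCCGC or TTTGGCGC. The windows, which end before the annotated start of the gene, are Mcm6 at chr1:128359706-128359955 on the minus strand, Rrm2 at chr12:24708004-24708240 on the plus strand, Ccnb2 at chr9:70421555-70421804, Cdc20 at chr4:118437353-118437593 and Haspin at chr11:73138295-73138544, the last 3 on the minus strand.
Mcm6: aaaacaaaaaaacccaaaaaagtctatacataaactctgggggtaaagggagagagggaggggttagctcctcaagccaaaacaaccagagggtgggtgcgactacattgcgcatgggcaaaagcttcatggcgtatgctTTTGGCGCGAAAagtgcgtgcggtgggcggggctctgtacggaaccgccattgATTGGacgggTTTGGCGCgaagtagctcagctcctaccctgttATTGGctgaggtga
Rrm2: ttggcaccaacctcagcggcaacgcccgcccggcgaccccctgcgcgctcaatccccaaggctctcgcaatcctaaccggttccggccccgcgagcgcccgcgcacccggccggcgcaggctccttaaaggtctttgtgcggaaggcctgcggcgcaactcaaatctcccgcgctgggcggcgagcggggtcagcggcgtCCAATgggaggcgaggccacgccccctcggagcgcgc
Ccnb2: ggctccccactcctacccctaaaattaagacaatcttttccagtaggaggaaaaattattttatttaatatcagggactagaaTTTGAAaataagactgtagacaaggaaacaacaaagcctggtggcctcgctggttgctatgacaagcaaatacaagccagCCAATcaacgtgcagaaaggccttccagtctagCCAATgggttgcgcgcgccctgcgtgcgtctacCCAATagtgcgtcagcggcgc
Cdc20: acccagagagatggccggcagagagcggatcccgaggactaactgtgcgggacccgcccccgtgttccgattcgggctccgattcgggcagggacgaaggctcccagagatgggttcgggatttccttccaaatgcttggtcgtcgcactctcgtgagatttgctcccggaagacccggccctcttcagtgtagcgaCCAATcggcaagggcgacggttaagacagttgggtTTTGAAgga
Haspin: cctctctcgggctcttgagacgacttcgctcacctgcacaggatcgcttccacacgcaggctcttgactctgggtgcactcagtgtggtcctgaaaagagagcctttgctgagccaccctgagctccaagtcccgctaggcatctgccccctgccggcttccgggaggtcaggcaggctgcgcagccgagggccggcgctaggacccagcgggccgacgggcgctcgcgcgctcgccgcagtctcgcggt

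Mcm6, a helicase subunit and S phase gene, held 3 E2F matches, 2 of which overlap, and 2 CCAAT boxes. Ccnb2, which makes cyclin B2, held 1 TTTGAA and 3 CCAAT boxes, and Haspin, which makes a kinase of mitotic chromatin, held none of the letters. Over 250 bases before the start, TTTGAA was found in 7 of 18 mitosis genes (38.9%), in 2 of 12 S phase genes (16.7%) and in 16% of the 32851 promoters of the table. CCAAT was found in 15 of 18 mitosis genes (83.3%), in 9 of 12 S phase genes (75.0%) and in 33.8% of all promoters. The E2F letters were found in 3 of 12 S phase genes (25.0%), in 1 of 18 mitosis genes (5.56%) and in 1.86% of all promoters. These matches describe letters in a window and show no binding.

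Summed over each class, the replication genes were at a higher and more even level than the mitosis genes, which differed widely between libraries of the same genotype. Of the 14 S phase genes, 5 had lower levels and wider ranges, from 4.93-fold to 21.3-fold or down to 0 (Ccne1, Ccne2, Cdc45, Rrm2 and Tk1). Per kilobase of exon, the mean over 16 libraries had a median of 14.6 CPM per kb for the 14 S phase genes and 3.12 CPM per kb for the 22 mitosis genes. Summed over the 14 S phase genes, the level ran from 889.9 to 1502 CPM between libraries, a range of 1.69-fold. Summed over the 22 mitosis genes, it ran from 67.5 CPM in St2 KO 1 to 926 CPM in St2 KO 2, a range of 13.7-fold between libraries of 1 genotype and 1 set. In these bulk libraries, fewer dividing cells and less mitotic RNA per cell cannot be told apart. No mitosis gene was at 0 in St2 KO 2 and 9 were at 0 in St2 KO 1, and a count of 0 allows up to 3 counts, or 0.933 to 1.44 CPM by library, for counting error only.

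**Figure D1:**
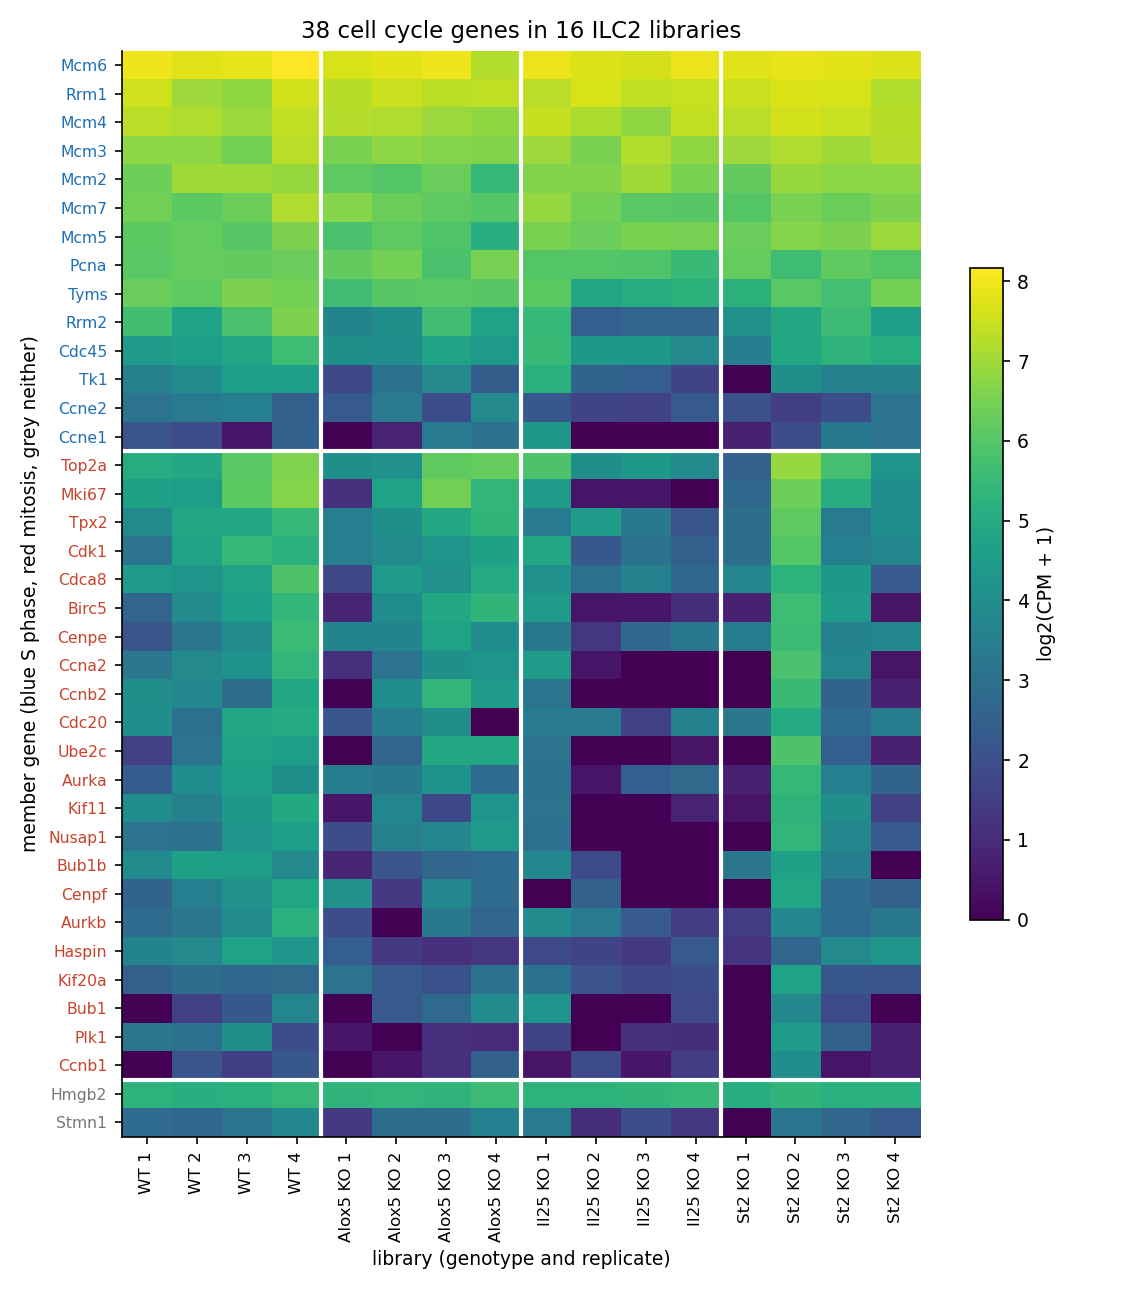
Level of each of the 38 genes (rows, blue S phase, red mitosis, grey neither, ordered by mean CPM within a class) in each of the 16 libraries (columns), as log2(CPM + 1) on a colour scale. Mcm2 to Mcm7, Rrm1, Pcna and Tyms are bright in every column, while most mitosis genes are dark in Il25 KO 2 to 4 and St2 KO 1 and brightest in St2 KO 2.

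The helicase that unwinds DNA at replication forks is built from Mcm2 to Mcm7. Mcm6 had the highest level per length of the 38 genes, 48.4 CPM per kb, followed by Mcm4 at 42.0 and Mcm3 at 31.4 CPM per kb. Across the 16 libraries Mcm6 ran from 150.5 to 287 CPM, Mcm4 from 110 to 194 CPM, Mcm3 from 86.6 to 158 CPM and Mcm7 from 61.7 to 145 CPM. The exons of Mcm7 overlap those of Cops6 and Ap4m1 on the other strand, and the library kit does not mark strand, so its counts are uncertain. Mcm2 was at 80.7, 129, 127 and 116 in WT, 69.3, 62.6, 78.5 and 42.6 in Alox5 KO, 97.6, 97.6, 127 and 90.5 in Il25 KO, and 73.2, 119.7, 108 and 109 in St2 KO, in CPM for replicates 1 to 4. All 4 Alox5 KO libraries lay below all 4 WT libraries, and the Il25 KO and St2 KO libraries overlapped WT. Mcm5 was at 67.98, 75.2, 65.1 and 93.97 in WT, 55.3, 69.2, 59.1 and 34.98 in Alox5 KO, 91.5, 78.1, 90.4 and 89.5 in Il25 KO, and 78.2, 101, 93.9 and 121 in St2 KO. Its 2 lowest libraries were Alox5 KO 4 and Alox5 KO 1, and Alox5 KO lay wholly below St2 KO and Il25 KO but overlapped WT.

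Pcna makes the sliding clamp of DNA polymerases, and Tyms and the ribonucleotide reductase genes Rrm1 and Rrm2 supply nucleotides. Pcna was at 67.2, 74.04, 73.01 and 77.6 in WT, 73.3, 86.6, 55.9 and 89.1 in Alox5 KO, 61.97, 62.7, 59.9 and 45.6 in Il25 KO, and 74.5, 48.8, 71.6 and 61.6 in St2 KO. Its whole range was 1.95-fold, and Il25 KO lay below WT in all 4 libraries. The pseudogene Pcna-ps2 was at 0 to 1.92 CPM in WT and Alox5 KO and at 8.95 to 20.2 CPM in Il25 KO and St2 KO, the genotypes that also carry Yarg. It was called higher against WT in Il25 KO (log2 fold change 5.14 ± 0.70 SE, adjusted p = 0.0002973) and in St2 KO (4.58 ± 0.75 SE, adjusted p = 0.002309, both edgeR quasi-likelihood test with Benjamini-Hochberg adjustment). Reads shared between Pcna and this copy may be split by the counting, and Pcna itself was not called, with a log2 fold change of -0.30 ± 0.22 (SE) in Il25 KO and -0.20 ± 0.22 (SE) in St2 KO. Tyms, the thymidylate synthase gene, was at 78.4, 69.8, 93.7 and 87.4 in WT, 50.2, 64.5, 66.2 and 64.7 in Alox5 KO, 67.7, 26.8, 32.6 and 37 in Il25 KO, and 37.4, 66.5, 52.2 and 86.4 in St2 KO. The WT libraries were highest but for St2 KO 4, which reached into their range, and both Alox5 KO and Il25 KO lay wholly below WT. Rrm1, the large reductase subunit, ran from 112 to 207 CPM.

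Rrm2, the small reductase subunit whose protein is made in S phase, had a wider range than Rrm1. Rrm2 was at 51.4, 25.4, 55.7 and 93.97 in WT, 11.9, 15.8, 49.6 and 24.9 in Alox5 KO, 43.6, 4.40, 5.29 and 5.39 in Il25 KO, and 16.5, 29.5, 47.5 and 22.7 in St2 KO. Its range was 21.3-fold, and Il25 KO 2 to 4 were the 3 lowest libraries while Il25 KO 1 lay within the WT range. Cyclin E drives the G1 to S step, and its genes were low. Ccne1 was at 3.48, 2.70, 0.376 and 4.90 in WT, 0, 0.773, 9.52 and 7.19 in Alox5 KO, 19.5, 0, 0 and 0 in Il25 KO, and 0.674, 2.80, 8.77 and 7.57 in St2 KO. It was at 0 in 4 libraries, and its highest library was Il25 KO 1, the library with the high epithelial markers. Ccne2 was at 7.72, 9.64, 10.5 and 4.49 in WT, 3.98, 9.28, 2.78 and 13.4 in Alox5 KO, 3.60, 2.20, 2.04 and 3.95 in Il25 KO, and 3.04, 1.86, 2.92 and 7.57 in St2 KO. Its exons overlap those of Ints8 on the other strand, so its counts are uncertain. Of the remaining S phase genes, Cdc45, which loads with the helicase, ran from 9.78 to 48.2 CPM and Tk1, a thymidine kinase, from 0 in St2 KO 1 to 36.0 CPM in Il25 KO 1. Chosen after their values were seen, Mcm2 to Mcm7, Rrm1, Pcna and Tyms formed 9 steady genes with ranges of 1.75-fold to 3.50-fold, and Ccne1, Ccne2, Cdc45, Rrm2 and Tk1 were the other 5.

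Among mitosis genes, Mki67, whose protein is the Ki-67 proliferation marker, had the largest spread of the 38 genes, with an SD of 2.29 on the log2(CPM + 1) scale. Mki67 was at 24.3, 22.4, 68.5 and 101 in WT, 1.19, 25.9, 86.1 and 40.7 in Alox5 KO, 21.98, 0.367, 0.407 and 0 in Il25 KO, and 5.73, 82.1, 32.9 and 15.1 in St2 KO. Il25 KO 2, 3 and 4 and Alox5 KO 1 were the 4 lowest libraries, and WT 4, Alox5 KO 3 and St2 KO 2 the 3 highest, so high libraries came from 3 genotypes. Top2a, the topoisomerase that untangles sister chromosomes, was at 32.1, 29.3, 66.2 and 94.4 in WT, 15.9, 16.6, 70.99 and 74.3 in Alox5 KO, 58.7, 15.8, 19.6 and 13.7 in Il25 KO, and 4.72, 119, 52.96 and 17.9 in St2 KO. St2 KO held both its lowest and its highest library, 25.3-fold apart. Cdk1, the kinase that drives entry into mitosis, was at 7.72, 25.1, 43.7 and 35.5 in WT, 10.3, 14.3, 17.9 and 24.4 in Alox5 KO, 28.1, 3.67, 7.33 and 4.67 in Il25 KO, and 6.75, 63.7, 10.6 and 12.4 in St2 KO. St2 KO 2 was again highest, and Il25 KO 2 to 4 and St2 KO 1 were the 4 lowest libraries.

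Ccnb2 makes cyclin B2, a partner of Cdk1. Ccnb2 was at 15.4, 13.1, 6.40 and 28.2 in WT, 0, 14.7, 40.5 and 22.04 in Alox5 KO, 7.93, 0, 0 and 0 in Il25 KO, and 0, 44.5, 5.11 and 0.688 in St2 KO. It was at 0 in 5 libraries, namely Alox5 KO 1, Il25 KO 2 to 4 and St2 KO 1. Ccna2, which makes cyclin A2, ran from 0 in 3 libraries to 55.0 CPM in St2 KO 2, and its exons overlap those of Exosc9. Ccnb1, the other B-type cyclin gene, had the lowest level per length of the 38 genes, 0.541 CPM per kb, and was the only one that did not pass the expression filter, which left 37 tested. Plk1, a kinase of spindle and centrosome, was at 8.50, 6.94, 15.8 and 2.86 in WT, 0.398, 0, 1.19 and 0.958 in Alox5 KO, 2.16, 0, 1.22 and 1.08 in Il25 KO, and 0, 21.1, 4.75 and 0.688 in St2 KO. The Alox5 KO and Il25 KO libraries all lay below the lowest WT library, and St2 KO 2 was highest.

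The anaphase-promoting complex ends mitosis once the spindle checkpoint is released. Ube2c, its ubiquitin-conjugating partner, was at 1.93, 7.71, 25.6 and 22.5 in WT, 0, 5.41, 29.4 and 28.8 in Alox5 KO, 7.57, 0, 0 and 0.359 in Il25 KO, and 0, 58.4, 4.38 and 0.688 in St2 KO. It was at 0 in 4 libraries and highest in St2 KO 2, more than in any WT library. Cdc20, the activator of the complex, ran from 0 in Alox5 KO 4, where Ube2c was at 28.8 CPM, to 31.5 CPM in WT 4 and overlaps Elovl1 on the other strand. The checkpoint kinase genes Bub1 and Bub1b ran from 0 to 17.7 CPM, highest in Il25 KO 1, and from 0 to 24.6 CPM, highest in St2 KO 2. The Bub1b levels of Alox5 KO, 0.796 to 6.23 CPM, and of Il25 KO, 0 to 13.0 CPM, lay below those of WT, 13.5 to 23.9 CPM.

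The chromosomal passenger complex is made from Aurkb, Birc5 and Cdca8 with Incenp, and it corrects the attachment of chromosomes. Birc5 ran from 0.344 CPM in St2 KO 4, which is 1 count, to 48.8 CPM in St2 KO 2. The 142-fold range between these libraries of 1 genotype therefore rests on 1 count, and they come from different sets, TY and TS. Cdca8 ran from 2.39 to 58.4 CPM and Aurkb from 0 to 35.5 CPM, both highest in WT 4. Spindle genes Aurka, Tpx2, Kif11, Kif20a and Nusap1 and the kinetochore genes Cenpe and Cenpf were all highest in St2 KO 2, at 25.2 to 69.0 CPM. St2 KO 2 was the highest library for 16 of the 22 mitosis genes, WT 4 for 4 of them.

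Hmgb2 and Stmn1 stood apart from each other. Hmgb2, a chromatin protein gene, was at 37.5, 34.7, 35.8 and 42.5 in WT, 39.02, 40.96, 38.9 and 47.9 in Alox5 KO, 38.2, 37.8, 39.5 and 42.8 in Il25 KO, and 33.4, 39.5, 35.1 and 35.1 in St2 KO. It had the smallest spread of the 38 genes, an SD of 0.13 on the log2(CPM + 1) scale. Stmn1, which destabilises microtubules, was at 6.18, 5.78, 7.90 and 13.1 in WT, 1.59, 6.57, 6.74 and 10.5 in Alox5 KO, 9.37, 1.10, 2.85 and 1.44 in Il25 KO, and 0, 8.08, 5.48 and 4.13 in St2 KO. Its lowest libraries were St2 KO 1, Il25 KO 2, Il25 KO 4 and Alox5 KO 1.

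The score of a class is the mean of log2(CPM + 1) over its genes, and it summarises the spread within and between genotypes. The S phase score was 5.79 ± 0.22 in WT, 5.38 ± 0.22 in Alox5 KO, 5.28 ± 0.51 in Il25 KO and 5.58 ± 0.40 in St2 KO (SD, n = 4). Its pooled SD within genotypes was 0.36 and the SD of the 4 genotype means was 0.23. The mitosis score was 3.90 ± 0.71 in WT, 3.03 ± 0.88 in Alox5 KO, 1.92 ± 0.93 in Il25 KO and 3.00 ± 1.65 in St2 KO (SD, n = 4). Its pooled SD within genotypes was 1.10, against 0.81 between the 4 means. For the score over both classes these SDs were 0.78 and 0.58, and without Il25 KO 1 their order turned, to 0.68 and 0.74. The mean over Mcm2 to Mcm7 had a pooled SD of 0.19 within and 0.19 between genotypes. A mean of 4 libraries varies less than a single library by sampling alone. The 2 SDs are therefore unlike measures, and their order does not show whether genotype or replicate mattered more.

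**Figure D2:**
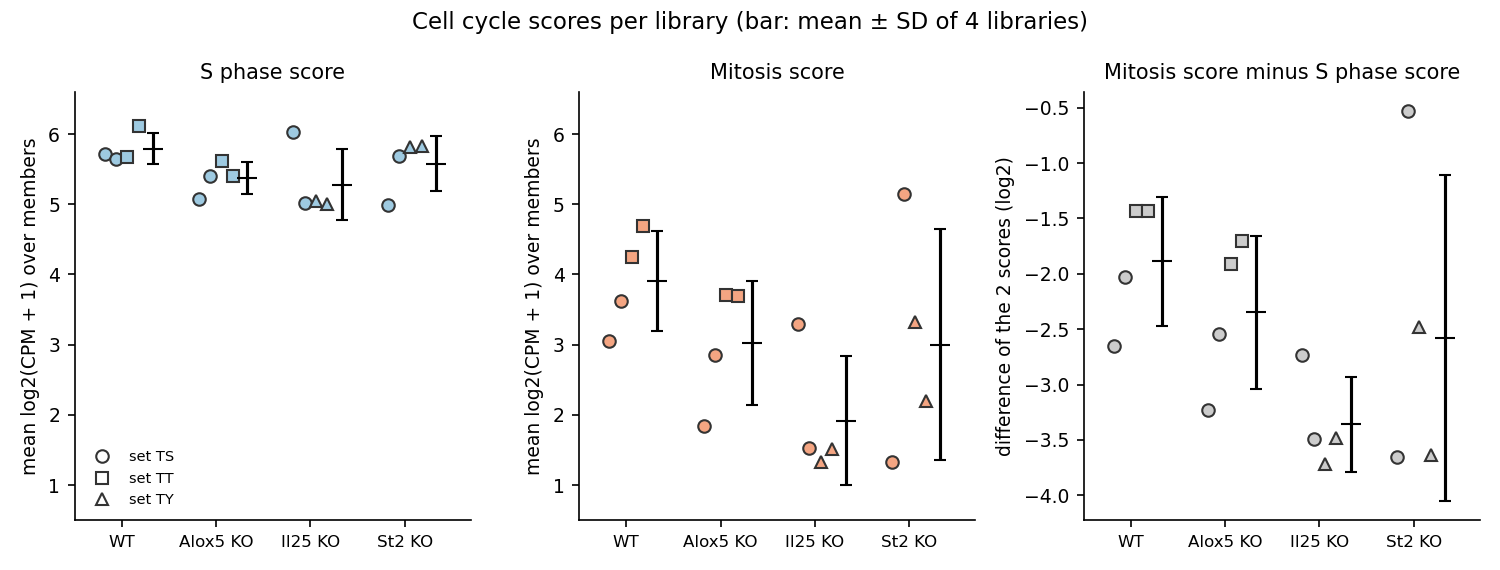
S phase score, mitosis score and their difference (y axes, log2 scale) in each library by genotype, with the shape of a point giving the sample-code set and the bar the mean ± SD of 4 libraries. The S phase scores lie between 4.99 and 6.12, and the mitosis scores between 1.33 and 5.15, with the widest spread in St2 KO.

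For the mitosis score, libraries of the same set within a genotype differed most in St2 KO, with 1.33 in replicate 1 and 5.15 in replicate 2, a difference of 3.82. For the S phase score the largest such difference was 1.01, between Il25 KO 1 and 2, and in St2 KO 1 and 2 it was 0.69. In set TS the corresponding mitosis differences were 0.56 in WT, 1.01 in Alox5 KO and 1.77 in Il25 KO. Replicates 3 and 4 differed by 0.44 in WT, 0.02 in Alox5 KO, 0.19 in Il25 KO and 1.1 in St2 KO. In both WT and Alox5 KO, the TT libraries had the 2 higher mitosis scores. St2 KO 1, with few mitotic transcripts, was also low in markers of B and plasma cells (763 CPM, against 2028 CPM in St2 KO 2), as were Alox5 KO 1 and 2, while Il25 KO 2 to 4 were low in mitotic transcripts with 2024 to 2792 CPM of those markers. The part of other cell types in the spread was not tested.

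The biological coefficient of variation (BCV), which edgeR estimates after genotype, set and counting noise are accounted for, was compared with its trend over genes of like level. The median BCV was 0.823 for the 21 tested mitosis genes, 0.205 for the 14 S phase genes and 0.211 for all 11742 tested genes. It lay above the trend for 20 of 21 mitosis genes (95.2%) and for 10 of 14 S phase genes (71.4%), against 37.3% of all tested genes. Bub1 had the highest value, 1.35, and Haspin was the mitosis gene below its trend, at 0.497 against 0.529. Mki67 was at 0.944 where the trend was 0.267. Genotype held a median of 29.4% of the variance of log2(CPM + 1) for mitosis genes, 35.1% for S phase genes and 25.2% for all tested genes. Unlike the BCV, this share was taken without the set term, so differences between TT and TY enter it. Sampling alone also gives a share above 0.

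**Figure D3:**
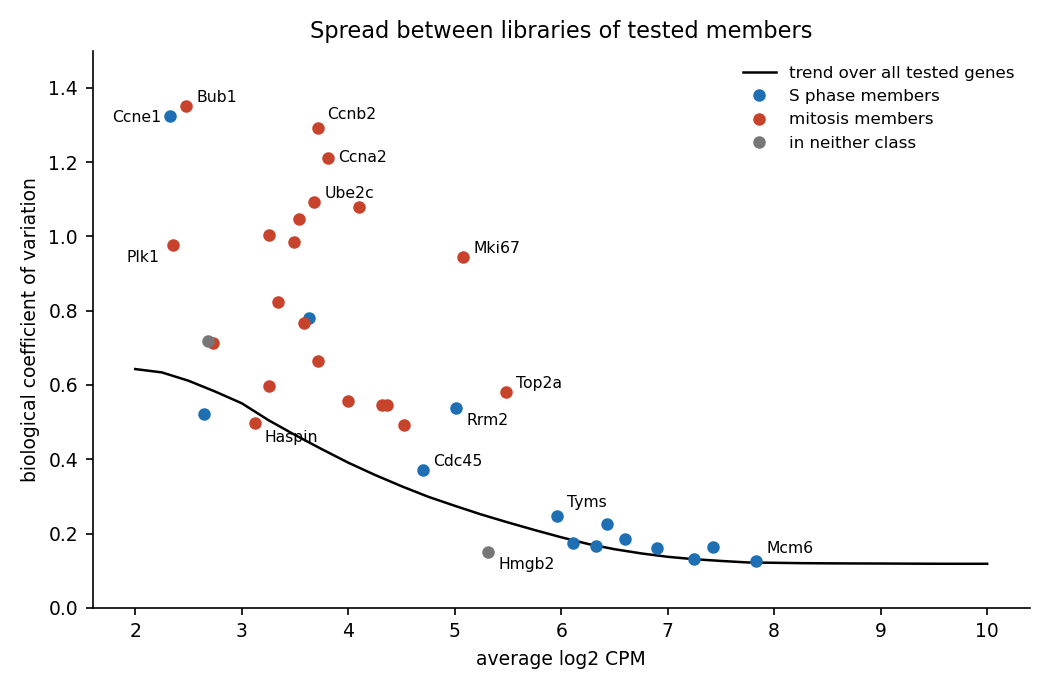
BCV (y axis) against average log2 CPM (x axis) for the 37 tested genes, with the line giving the trend over all tested genes. Of the mitosis genes 20 of 21 lie above the line, and the S phase genes at high levels lie close to it.

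The comparisons with WT ask which of the genes differ when leukotrienes, IL-25 or the IL-33 receptor are missing. They were made in 1 edgeR quasi-likelihood model with genotype and set as terms, and a gene is called where its p, adjusted by Benjamini-Hochberg over 11742 genes, was below 0.05. In Alox5 KO against WT, 1 of 37 genes was called, Haspin, lower, where 0.102% of all tested genes were called. In Il25 KO against WT the 1 called gene was again Haspin, lower, with a background of 0.417%. In St2 KO against WT 0 of 37 were called, with a background of 0.298%, and DESeq2 also called 0. The counts at an unadjusted p below 0.05 were 8, 4 and 4 of 37, where the shares over all tested genes were 7.17%, 9.30% and 7.49%. These 3 comparisons share the WT libraries. The shares of all tested genes called with 1 library left out are not given here, so the calls that follow do not set the genes apart. Without Il25 KO 1 there were 3 calls in Il25 KO against WT, namely Haspin, Rrm2 (log2 fold change -3.17 ± 0.64 SE, adjusted p = 0.03402) and Tyms (-1.46 ± 0.29 SE, adjusted p = 0.02989, edgeR), all lower. Without St2 KO 1 there was 1 call in St2 KO against WT, Ube2c, higher (3.94 ± 0.60 SE, adjusted p = 0.004862, edgeR), against 3.02 ± 0.98 (SE) and 0.3867 with that library. In that fit St2 KO 2, at 58.4 CPM of Ube2c, was the only St2 KO library in a set that WT also held. St2 KO 3 and 4 were at 4.38 and 0.688 CPM, where WT ran from 1.93 to 25.6 CPM.

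Haspin makes a histone kinase that marks chromosomes for the passenger complex. Haspin was at 11.97, 13.5, 25.2 and 17.98 in WT, 4.38, 1.55, 1.19 and 1.44 in Alox5 KO, 2.52, 2.20, 1.63 and 3.95 in Il25 KO, and 1.35, 5.29, 13.5 and 18.2 in St2 KO. All 4 Alox5 KO and all 4 Il25 KO libraries lay below all 4 WT libraries, whereas St2 KO spanned both ranges, with its TY libraries within WT and its TS libraries below it. The log2 fold change against WT was -2.93 ± 0.50 (SE) in Alox5 KO (adjusted p = 0.008386) and -3.46 ± 0.64 (SE) in Il25 KO (adjusted p = 0.008868, both edgeR). In St2 KO it was -1.66 ± 0.55 (SE, adjusted p = 0.3867), and Il25 KO against St2 KO gave -1.79 ± 0.52 (SE, adjusted p = 0.1069), so the genotypes were not shown to differ there. Without Alox5 KO 2, 3 or 4 the adjusted p for Alox5 KO against WT was 0.073, 0.08114 and 0.07698, and without WT 2 that for Il25 KO was 0.05457. In set TS alone it was 0.9984 for Alox5 KO and 0.6417 for Il25 KO, with log2 fold changes of -2.09 and -2.38. The set term changed the Il25 KO value most: without it the log2 fold change was -2.67 ± 0.55 (SE, adjusted p = 0.01884, edgeR). For Alox5 KO it was then -2.95 ± 0.59 (SE, adjusted p = 0.04464, edgeR).

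Haspin is a gene of 1 exon on chromosome 11 (73135485 to 73138294, minus strand, GRCm38) that lies inside Itgae, which is on the other strand and makes the integrin chain CD103. Their exons do not overlap, but without strand marking, reads from Itgae introns could be counted to Haspin. Itgae was at 3.09, 3.08, 3.01 and 6.13 in WT, 6.37, 1.16, 2.38 and 3.83 in Alox5 KO, 13.3, 8.07, 41.95 and 23.7 in Il25 KO, and 2.02, 1.86, 1.10 and 17.9 in St2 KO. Itgae was highest in Il25 KO, where Haspin was low, whereas in St2 KO 4 Itgae was at 17.9 CPM and Haspin at 18.2 CPM. The part of Itgae reads in the Haspin counts was not tested. Itgae was called higher in Il25 KO than in St2 KO (log2 fold change 1.94 ± 0.46 SE, adjusted p = 0.04018, edgeR). Against WT, Itgae was not called in Alox5 KO (-0.14 ± 0.81 SE) or in Il25 KO (1.49 ± 0.79 SE).

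**Figure D4:**
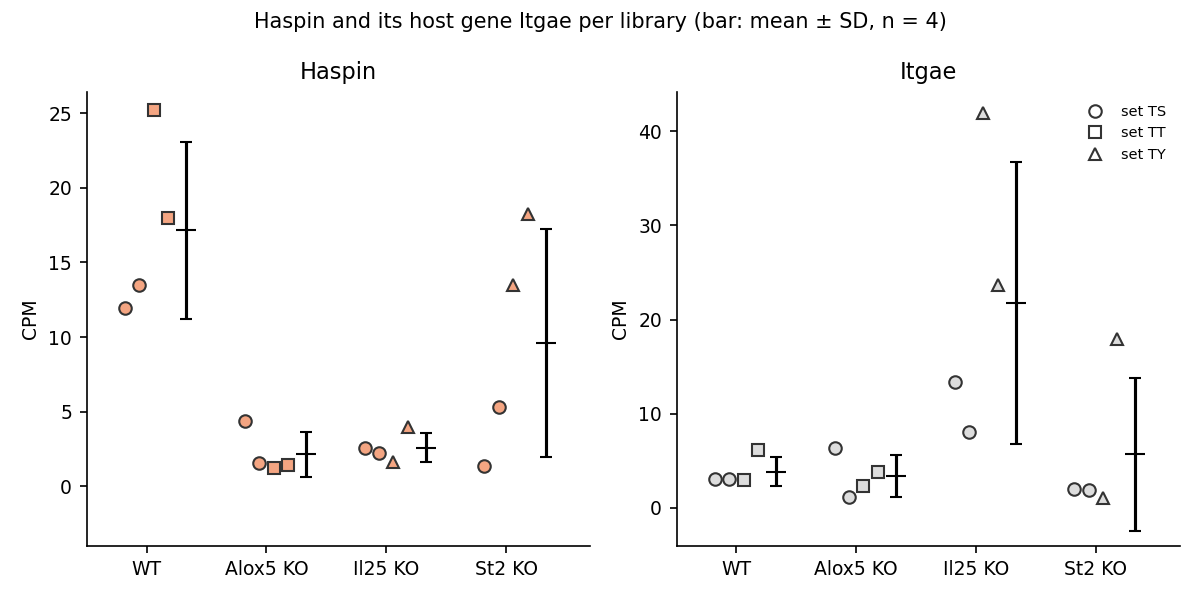
CPM (y axes) of Haspin and of Itgae, the gene around it on the other strand, per library by genotype, with the shape giving the sample-code set and the bar the mean ± SD of 4 libraries. Haspin lies at 1.19 to 4.38 CPM in Alox5 KO and Il25 KO and at 11.97 to 25.2 CPM in WT, while Itgae reaches 41.95 CPM in Il25 KO.

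Beyond the calls, the direction of the fold changes is described without a test. In Alox5 KO against WT 29 of 37 genes had a log2 fold change below 0 with a median of -0.37, where 47.9% of all tested genes were below 0 with a median of 0.01. In Il25 KO against WT it was 24 of 37 with a median of -0.14, where 49.7% of all genes were below 0. In St2 KO against WT it was 10 of 37 with a median of 0.47, where 48.2% were below 0, and the median was -0.41 without St2 KO 2 and -0.17 without the set term. The mitosis genes had medians of -0.46, -0.26 and 1.01 in the 3 comparisons, and the S phase genes -0.23, 0.00 and -0.03. The mitosis median of St2 KO against WT was -0.60 without St2 KO 2, and that of Il25 KO against WT was -1.65 without Il25 KO 1. Without the set term the median over the 37 genes in Il25 KO against WT was -1.29.

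**Figure D5:**
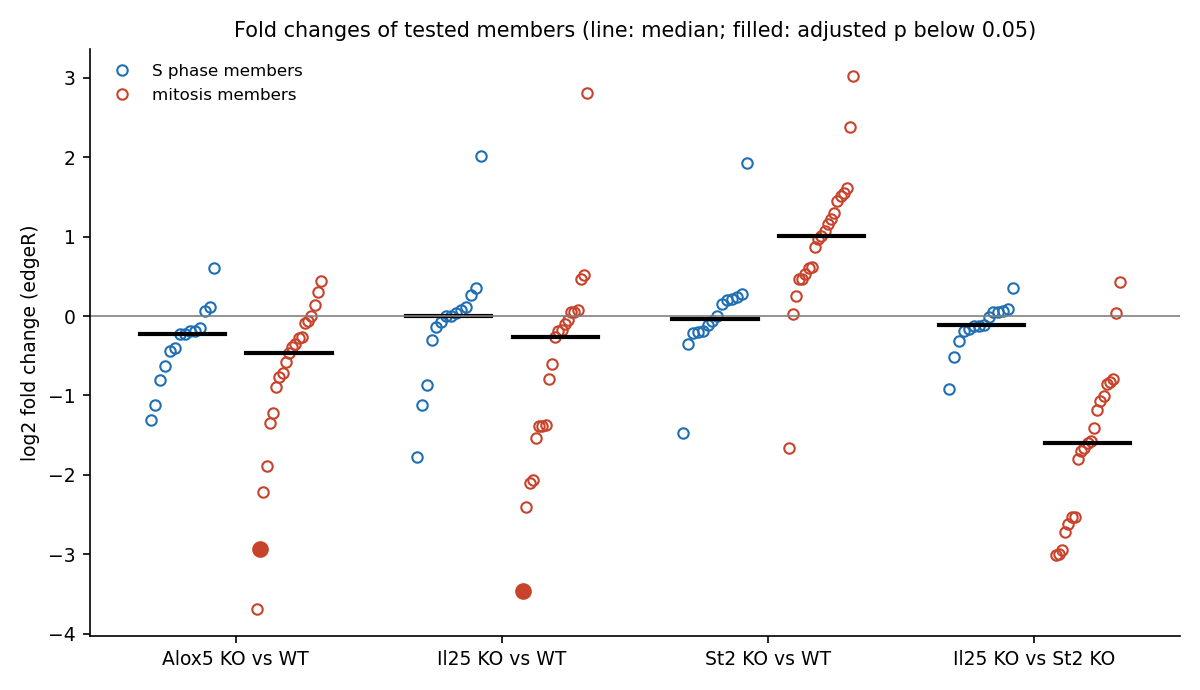
Log2 fold change (y axis, edgeR) of each tested S phase and mitosis gene in 4 comparisons (x axis), with the line at the class median and filled points for an adjusted p below 0.05. The filled points are Haspin in Alox5 KO and in Il25 KO against WT, and the mitosis medians lie at 1.01 in St2 KO against WT and at -1.59 where Il25 KO is set against St2 KO.

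Whether the libraries of 2 genotypes overlapped at all was counted in CPM without the set term. Il25 KO lay wholly below WT for 11 of 37 genes (29.7%), where 6.78% of all tested genes did not overlap in either direction. These were Pcna, Tyms and Ccne2 of S phase and Bub1b, Cdca8, Cenpf, Haspin, Kif11, Mki67, Nusap1 and Plk1 of mitosis. Replicates 3 and 4 of the groups come from different sets, TT in WT and TY in Il25 KO, so genotype and set cannot be told apart in this count. Alox5 KO, whose sets match those of WT, lay wholly below it for 5 of 37 genes (Bub1b, Haspin, Mcm2, Plk1 and Tyms), where the background was 3.84%. Of these Mcm2 had a log2 fold change of -0.81 ± 0.20 (SE) with an adjusted p of 0.1754 in edgeR and 0.01892 in DESeq2. St2 KO overlapped WT for all 37 genes, where 8.47% of all tested genes did not overlap.

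Between the knockouts, Il25 KO and St2 KO share both sets and the Yarg allele, which makes that pair the most evenly matched. No gene of the 37 was called, with a background of 1.24%, by edgeR or DESeq2, and 10 of 37 had an unadjusted p below 0.05, all of mitosis, where 11.3% of all tested genes did. Il25 KO had the lower value for 19 of 21 mitosis genes, with a median log2 fold change of -1.59, and for 9 of 14 S phase genes, with a median of -0.12. In all 29 of 37 were below 0, where 52% of all tested genes were. The mitosis median rested on 1 library: without St2 KO 2 it was -0.04, the median over the 37 genes went from -0.83 to -0.07, and 0 genes were called. Cenpe was the gene of 37 (2.7%) whose libraries did not overlap, at 1.47 to 8.65 CPM in Il25 KO and 9.78 to 47.9 CPM in St2 KO, below the 5.95% of all tested genes. Leaving out St2 KO 1 instead gave 7 calls, all lower in Il25 KO: Ube2c, Kif11, Cenpf, Nusap1, Tpx2, Plk1 and Mki67. Of these Nusap1 had a log2 fold change of -3.73 ± 0.64 (SE) and an adjusted p of 0.003652 (edgeR), against -2.99 ± 0.98 and 0.1837 with that library. Without St2 KO 1, St2 KO 2 was the only St2 KO library of set TS. The share of all tested genes called in that fit is not given here, so the 7 calls do not set these genes apart.

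Alox5 KO against St2 KO gave 0 calls of 37 (background 0.485%, also 0 in DESeq2), with 12 of 37 at an unadjusted p below 0.05, where 11.5% of all tested genes were. Of the 37 fold changes 34 were below 0, where 51.6% of all tested genes were, with a median of -1.27. Without St2 KO 2 that median was -0.11, with 0 calls, and without the set term it was -0.18. Mcm3, Mcm4 and Mcm5, 3 of 37 genes (8.11%), lay wholly lower in Alox5 KO, below the 9.69% of all tested genes that did not overlap. Leaving out St2 KO 1 gave 7 calls, Ube2c, Cdk1, Top2a, Nusap1, Tpx2, Ccna2 and Plk1, all lower in Alox5 KO. The share of all tested genes called in that fit is not given here, so the 7 calls do not set these genes apart. Alox5 KO against Il25 KO gave 0 calls (background 0.392%, also 0 in DESeq2), with 4 of 37 at an unadjusted p below 0.05, where 9.37% of all tested genes were. Of the 37 fold changes 22 were below 0, where 50.8% of all tested genes were, and the median of -0.15 turned to 0.40 without the set term and to 0.30 without Il25 KO 1. In that pair Mcm2 and Mcm5 lay wholly lower and Cenpe wholly higher in Alox5 KO, together 8.11% of the 37 genes, where 5.94% of all tested genes did not overlap. For any difference between the 4 genotypes, 1 of 37 was called, Haspin (adjusted p = 0.0009068, edgeR), with a background of 1.17%.

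The set terms of the model were read in the same way. In TT against TS, estimated within WT and Alox5 KO, 20 of 21 mitosis genes had a log2 fold change above 0 with a median of 1.07, while 48.1% of all tested genes were below 0. In TY against TS, estimated within Il25 KO and St2 KO, 20 of 21 were below 0 with a median of -1.55, while 51.2% of all tested genes were, and the median was -0.26 without St2 KO 2. The mitosis gene above 0 in TY against TS was Haspin, at 1.73 ± 0.50 (SE). In St2 KO Haspin was at 1.35 and 5.29 CPM in TS and at 13.5 and 18.2 CPM in TY. In Il25 KO it was at 2.52 and 2.20 CPM in TS and at 1.63 and 3.95 CPM in TY, so the shift was seen in St2 KO only. None of the 37 was called for either set term, with backgrounds of 0% and 0.136%, and DESeq2 also called 0 of them. At an unadjusted p below 0.05 there were 8 and 9 of 37, where the shares over all tested genes were 7.14% and 9.44%.

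The rest of the cell cycle machinery was read from lists of other genes. Of 30 further replication genes 0 were called in any pair of genotypes, and of 39 tested further mitosis genes 0 were called. The share of all tested genes called was 0.102% to 1.24% by pair, so 0 calls do not set these lists apart. The further mitosis genes had medians of -0.40 in Alox5 KO, -0.17 in Il25 KO and 0.50 in St2 KO against WT. Not all of them were low: the condensin gene Smc4 ran from 158 to 349 CPM and Pttg1, which makes securin, from 114 to 179 CPM. Among pocket protein genes Rbl2 ran from 288 to 366 CPM, Rb1 from 151 to 231 CPM and Rbl1 from 47.8 to 83.7 CPM. Genes for other DREAM subunits varied more, with Lin9 at 11.01 to 38.6 CPM and Lin54 at 33.5 to 93.2 CPM, while Lin37 ran from 61.9 to 97.96 CPM. The factors that switch on the mitosis genes were near the limit of counting, with Foxm1 at 0 to 4.04 CPM and Mybl2 at 0 to 6.23 CPM. Among G1 genes, Ccnd2, a D-type cyclin gene, ran from 556 to 708 CPM and its kinase partner gene Cdk4 from 231 to 290.4 CPM. Of 9 tested G1 genes 0 were called in any pair, against the same 0.102% to 1.24% of all tested genes.

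Of 14 tested CDK inhibitor and antiproliferative genes, 1 was called in Alox5 KO against WT (Btg2), 0 in Il25 KO (2 at an unadjusted p below 0.05, edgeR) and 2 in St2 KO (Btg2 and Gadd45b), where 0.102%, 0.417% and 0.298% of all tested genes were called. Both were also called in Il25 KO against St2 KO (1.24% of all tested genes), Btg2 in Alox5 KO against Il25 KO (0.392%) and Gadd45b in Alox5 KO against St2 KO (0.485%). The CDK inhibitor gene Cdkn1a ran from 47.8 to 341 CPM and was not called. Btg2, an antiproliferative gene induced by p53 and growth signals, was at 894, 738, 689 and 781 in WT, 478, 528, 508 and 541 in Alox5 KO, 806, 926, 893 and 735 in Il25 KO, and 521, 452, 494 and 482 in St2 KO. Both Alox5 KO and St2 KO lay wholly below WT and Il25 KO. Its log2 fold change against WT was -0.58 ± 0.10 (SE, adjusted p = 0.01886) in Alox5 KO and -0.69 ± 0.12 (SE, adjusted p = 0.009229) in St2 KO (edgeR). Gadd45b, a stress-induced gene, was at 595, 518, 508 and 524 in WT, 532, 628, 507 and 623 in Alox5 KO, 526, 645, 619.5 and 486 in Il25 KO, and 188, 218, 239 and 213 in St2 KO. It was lower in all 4 St2 KO libraries than in any other, with a log2 fold change against WT of -1.38 ± 0.14 (SE, adjusted p = 1.829e-05, edgeR). In St2 KO 1 and St2 KO 2, the libraries with the lowest and highest sums of mitosis genes, these genes were at 521 and 452 CPM of Btg2 and 188 and 218 CPM of Gadd45b.

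The genes outside the lists that were most like the scores were searched among 9332 genes with a mean of at least 10 CPM, over 16 libraries, as a description. Asf1b, a histone chaperone gene, led for both, with a Pearson r of 0.885 with the mitosis score and 0.875 with the S phase score. Pclaf, which makes a PCNA-binding factor, followed with 0.840 and 0.811. Asf1b was at 32.8, 43.6, 60.97 and 76.4 in WT, 17.9, 32.1, 50.4 and 42.6 in Alox5 KO, 50.4, 21.6, 22.8 and 11.8 in Il25 KO, and 13.5, 46.01, 40.5 and 34.4 in St2 KO. Its 4 lowest libraries were Il25 KO 4, St2 KO 1, Alox5 KO 1 and Il25 KO 2. At the other end, Mcl1, a survival gene of the BCL2 family, had an r of -0.780 with the mitosis score. The libraries share set, depth and genotype, so these values say nothing of shared control.

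Of the marker lists of cell types, the genes called were Derl3 and Cd79b of B and plasma cells, Prg2 of granulocytes and mast cells and Id2 of ILC2. Against WT, Derl3 was lower in Alox5 KO (log2 fold change -4.07 ± 0.62 SE, adjusted p = 0.00369), as was Prg2 (-4.74 ± 0.89 SE, adjusted p = 0.03723), and Cd79b was lower in Il25 KO (-1.07 ± 0.16 SE, adjusted p = 0.0019, all edgeR). Derl3 was 1 of 13 tested markers and Prg2 1 of 2, where 0.102% of all tested genes were called. In Alox5 KO against WT, 11 of those 13 markers were below 0. Of the 2 tested markers of granulocytes and mast cells the other, Cpa3, was above 0, so that list did not move in 1 direction. Cd79b was 1 of 13, where 0.417% were called, and 7 of these 13 were above 0 in Il25 KO, with a median of 0.05. Against St2 KO, 12 of the 13 were higher in Il25 KO, while Cd79b was called lower. Id2, 1 of 14 tested ILC2 markers, was higher in Alox5 KO than in St2 KO (0.56 ± 0.12 SE, adjusted p = 0.03277, edgeR), where 0.485% of all tested genes were called. The part of these marker genes in the values of the cell cycle genes was not tested.

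Counts of 11 genes are uncertain because their exons overlap exons of a gene on the other strand: Cdc45, Ube2c, Kif20a, Cdc20, Tk1, Nusap1, Ccna2, Ccne2, Cdca8, Mcm7 and Plk1. For Ube2c and Plk1 the other gene had 0 counts in all libraries. For Cdc45, Tk1, Cdc20, Kif20a, Ccna2, Ccne2 and Mcm7 the other gene, or the larger of them, had more counts than the member itself.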

How the data were processed

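RNA was measured in 16 libraries of sorted duodenal ILC2, 4 of each genotype. The deposited table holds raw gene counts made by the authors. The submitters' processing notes name HTSeq 0.4.1 and STAR 2.4.2a, further FastQC 0.11.3, Picard 1.134 and the build GRCm38, with settings not given in the sources used here. Per the labels' protocols, libraries were made with Nextera XT, which does not mark strand. Of 53471 rows, 6 with a repeated identifier were dropped. Positions and exon lengths are from GENCODE M21 on GRCm38, which held 99.8% of the identifiers.

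CPM used column totals, and scores used log2(CPM + 1). Counts were tested with edgeR 4.0.16 in R 4.3.3 (quasi-likelihood F test, robust, TMM scaling, default expression filter, 11742 genes), with genotype and sample-code set as terms and 10 residual degrees of freedom. The standard error is the log2 fold change divided by the square root of F. The procedure was tested on simulated counts. Groups come from the sample titles. Alternatives were DESeq2 1.42.0, other scaling, filters, terms and libraries.

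The members, lists and rules were chosen with earlier results of these data known. The rule named all 38 genes, gave every library for 15 of them, for called genes and for the genes of largest and smallest SD, named called genes of related lists, and took the 10 highest and 5 lowest correlations with each score, of which the leading ones are named.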

Additional observations from a re-analysis of the deposited data

Results flagged for a closer look

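In groups of 4 libraries, a value is listed here where the gap from 1 library to its nearest neighbour took more of the range of the group than Dixon's 95% critical value. Of 156 groups tested, 19 were listed. A group with counts in only 1 library is always listed, as for Ccne1, Ccnb2 and Nusap1 in Il25 KO. Single genes were tested beside the scores made from them, so the groups are not independent. The usual chance rate of about 1 in 20 is therefore no measure for the 19. All values are on the log2(CPM + 1) scale, and no cause was tested.

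Il25 KO 1 stood above the other Il25 KO libraries in both scores, with an S phase score of 6.037 and a mitosis score of 3.3. It stood above them also for Ccne1 at 4.355, Rrm2 at 5.479, Mki67 at 4.522, Ccna2 at 4.499, Birc5 at 4.499, Ccnb2 at 3.158, Ube2c at 3.099 and Nusap1 at 2.972. This library also had the highest sum of epithelial markers. Elsewhere in Il25 KO, replicate 2 was lowest for Mcm5 at 6.306 and highest for Cenpf at 2.528, replicate 3 was lowest for Cdc20 at 1.602, and replicate 4 was lowest for Pcna at 5.543.

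WT 4 had an S phase score of 6.121, above the other WT libraries. Alox5 KO 1 was lowest of its group for Tyms at 5.677 and highest for Haspin at 2.427. St2 KO 1 was lowest of its group for Tk1 at 0.0, and St2 KO 2 highest for Cenpe at 5.611.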

How the results depend on the processing

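No result turned its sign among called values. In numbers of genes called, Alox5 KO against WT (1) gave 2 with DESeq2, 0 in edgeR's legacy mode, 0 in set TS alone and 0 to 1 with 1 library left out. Il25 KO against WT (1) gave 0 in legacy mode, 0 in set TS alone, 0 with only the 2 genotypes and 0 to 3 with 1 library left out. St2 KO against WT (0) gave 0 to 1, Il25 KO against St2 KO (0) 0 to 7, Alox5 KO against St2 KO (0) 0 to 7, any genotype difference (1) 1 to 7 and TY against TS (0) 0 to 2 with 1 library left out. Alox5 KO against St2 KO gave 1 without the set term, and any genotype difference gave 2 with DESeq2 and 0 in set TS alone. Without Alox5 KO 1, Alox5 KO 2 and St2 KO 1, which were low in B and plasma cell markers, an alternative chosen after the data were seen, the counts were 1 in St2 KO against WT, 6 in Il25 KO against St2 KO, 3 for any genotype difference and 1 in TY against TS. The shares of all tested genes called in these alternatives are not given here, so the counts do not set the cell cycle genes apart. The adjusted p of Haspin was 0.1131 in Alox5 KO and 0.07247 in Il25 KO in legacy mode, and 0.4175 in Il25 KO with only the 2 genotypes.

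The median log2 fold change of the tested genes without the set term was -1.292 in Il25 KO against WT and -0.175 in Alox5 KO against St2 KO, and its sign turned in St2 KO against WT (0.469 to -0.169) and in Alox5 KO against Il25 KO (-0.15 to 0.395). With 1 library left out it ran from -1.325 to -0.069 in Il25 KO against St2 KO, from -0.451 to 0.302 in Alox5 KO against Il25 KO, from -0.949 to -0.002 in Il25 KO against WT, from -0.411 to 1.002 in St2 KO against WT and from -1.993 to -0.112 in Alox5 KO against St2 KO. The cause of these changes was not tested. Upper-quartile scaling and no filter on low counts changed no count of calls. Libraries with the same number did not deviate together (3 of 24 pairs correlated above 0.1, range -0.079 to 0.197, 7 libraries closest to their own number). A replicate block left 8 residual degrees of freedom and gave 1, 1 and 0 calls against WT and 0 in the other pairs, with an adjusted p of Haspin of 0.01858 in Alox5 KO and 0.02285 in Il25 KO. Genes under about 1 CPM rest on 3 counts or fewer in a library.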
